A study of Mus musculus with 12 samples.

Results

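The acute phase proteins described here are 10 plasma proteins or their tissue-made relatives, the serum amyloid A genes Saa1, Saa2, Saa3 and Saa4, the orosomucoids Orm1 and Orm2, haptoglobin (Hp), hemopexin (Hpx), lipocalin 2 (Lcn2) and serum amyloid P component (Apcs). Their spots were found by gene symbol, and all 10 were among 26228 named genes on the array. The choice of the 10 was made with earlier results of these data known. Lcn2 was read by a pair of spots and each of the others by a single spot, 11 spots of the 61657 that are not controls. All 10 passed the filter on dim spots in every comparison.

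Female B6C3F1/Nctr mice gave liver and lung RNA, which was labelled with Cy3 and measured on 12 one-colour Agilent arrays. There were 4 groups of 3 arrays: untreated liver (arrays 1, 3 and 4), liver with 0.7 mM acrylamide (27, 29 and 30), untreated lung (4, 5 and 6) and lung with 0.7 mM acrylamide (28, 29 and 30). Controls were matched for age, and neither their age nor how or for how long acrylamide was given is stated in the labels. Whether each array of a group is its own animal is not stated either, so the p-values measure the spread between these arrays, which may be technical.

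The acute phase response is the change in plasma proteins that follows infection or injury. Interleukin-6, interleukin-1 and tumour necrosis factor act on hepatocytes, where STAT3, C/EBP and NF-kB proteins raise transcription of positive acute phase genes, while negative ones such as albumin fall. Serum amyloid A proteins travel on high-density lipoprotein, haptoglobin and hemopexin bind free haemoglobin and haem, orosomucoids carry basic drugs, serum amyloid P is the main acute phase pentraxin of the mouse, and lipocalin 2 withholds iron from bacteria by binding their siderophores. Saa3, Lcn2 and Hp are also known to be made outside the liver, in epithelial cells, macrophages and fat.

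All values below are log2 intensity minus the 75th percentile of the same array, called scaled log2 intensity. A value of 0 therefore lies at that percentile, and levels of different genes are not compared, since each spot has its own response. The tissue entry of the labels says liver for all 12 arrays, while titles and source names say lung for 6. Those 6 had the alveolar type 2 list (10 surfactant and related genes) at a mean of 5.30 to 5.59 and the hepatocyte list (15 genes) at -2.64 to -1.58. On the arrays titled liver the hepatocyte list lay at 7.37 to 7.73 and 9 alveolar genes at -2.18 to -0.53, so the arrays are called by their titles. Liver acrylamide arrays 27 and 29 stood apart within liver, with alveolar lists at -0.53 and -0.92 against -2.18 to -1.78 on the other 4, and club cell lists at -0.37 and -0.51 against -2.32 to -1.68. Liver acrylamide 30 had a background limit (the 95th percentile of its negative control spots) of 16.8 against 2.35 to 4.45 on the other arrays, and 34287 spots above it against 46450 to 51099.

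The 4 serum amyloid A genes lie side by side on chromosome 7 of GRCm38.p6, in the order Saa3, Saa4, Saa1 and Saa2 from 46711998 to 46754313. Saa1 and Saa2 are read in opposite directions from neighbouring starts. RefSeq promoter windows, from 250 bases before to 50 after the start, were at hand for 8 of the 10 genes. The Saa3 window lies within the span of its gene, which ends at 46719615, so its start is internal to that span. The Saa1 start also lies inside the span of its gene, which ends at 46743181. Those of Saa1, Saa2, Lcn2 and Saa3 are shown because the first 3 genes varied together over the liver arrays, as described below, whereas Saa3 followed another order. Capitals mark matches to the C/EBP-type motif TTNNGNAA on either strand.
Saa1 (chr7:46742931-46743230, minus strand): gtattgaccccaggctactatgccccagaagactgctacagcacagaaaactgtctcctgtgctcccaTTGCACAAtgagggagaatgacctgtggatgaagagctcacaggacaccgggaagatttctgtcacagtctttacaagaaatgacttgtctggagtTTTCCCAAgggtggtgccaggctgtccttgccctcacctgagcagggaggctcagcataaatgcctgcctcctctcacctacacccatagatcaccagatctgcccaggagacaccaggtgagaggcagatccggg
Saa2 (chr7:46751583-46751882, plus strand): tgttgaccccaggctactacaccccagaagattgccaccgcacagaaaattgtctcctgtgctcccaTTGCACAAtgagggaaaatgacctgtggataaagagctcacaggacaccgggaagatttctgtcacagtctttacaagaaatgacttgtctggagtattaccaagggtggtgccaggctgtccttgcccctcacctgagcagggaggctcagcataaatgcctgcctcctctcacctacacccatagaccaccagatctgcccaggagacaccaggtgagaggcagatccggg
Lcn2 (chr2:32387690-32387989, minus strand): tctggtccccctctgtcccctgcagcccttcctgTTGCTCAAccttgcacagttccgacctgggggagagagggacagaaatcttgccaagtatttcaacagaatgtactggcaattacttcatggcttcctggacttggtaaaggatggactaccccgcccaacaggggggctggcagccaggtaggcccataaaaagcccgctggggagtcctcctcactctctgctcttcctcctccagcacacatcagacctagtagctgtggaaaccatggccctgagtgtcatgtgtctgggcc
Saa3 (chr7:46715627-46715926, minus strand): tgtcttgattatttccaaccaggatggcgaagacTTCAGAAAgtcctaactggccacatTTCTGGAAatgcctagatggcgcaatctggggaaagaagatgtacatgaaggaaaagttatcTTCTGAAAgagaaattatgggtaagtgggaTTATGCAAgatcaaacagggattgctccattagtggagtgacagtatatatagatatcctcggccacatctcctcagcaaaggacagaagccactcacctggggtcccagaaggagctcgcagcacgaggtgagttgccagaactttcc
The Saa1 and Saa2 windows were 95.3% identical (287 identical bases over 299 aligned, with 2 gap positions). No other pair among the 8 windows was above 54.2%. Saa1 had matches at -182 and -86 from its start, Saa2 at -183, Lcn2 at -216, and Saa3 at -216, -191, -129 and -99. The motif occurred in 7 of the 8 windows, all but that of Apcs, against 40.7% of 32851 promoters of the same length. The type 2 interleukin-6 response element core CTGGGAA was found in the Apcs window alone (11.1% of promoters) and so was the STAT-type TTCNNNGAA (8.3%). Both strands were searched, the C/EBP-type and STAT-type patterns can overlap, and a match describes letters in the window and not binding.

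Lung against liver, the comparison of tissues without treatment, gave the largest differences. In untreated arrays 9 of the 10 genes were lower in lung and Lcn2 was higher, and all 10 passed the test (limma, Benjamini-Hochberg adjusted p under 0.05 over 22441 genes) with groups that did not overlap. The threshold was passed by 74.4% of all genes tested, 42.4% lower and 32.0% higher in lung, and 78.8% had groups that did not overlap, so both are common between these tissues. The 6 largest differences ran from -11.05 to -9.12 log2 units, whereas the median over all genes was -0.28. The first of them, Saa4, rests on a lung spot that was above background on 2 of 3 untreated lung arrays, so its size is uncertain. On the acrylamide arrays the same contrast again called all 10, none overlapping, with the same 9 lower and Lcn2 higher. Of 22115 genes 72.8% were called there, 41.5% lower and 31.3% higher, and 78.5% did not overlap. In tissue RNA, fewer cells of a type and less RNA per cell cannot be told apart, and since all liver arrays were on 1 slide and all lung arrays on another, the slide and the tissue cannot be told apart.

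**Figure D1:**
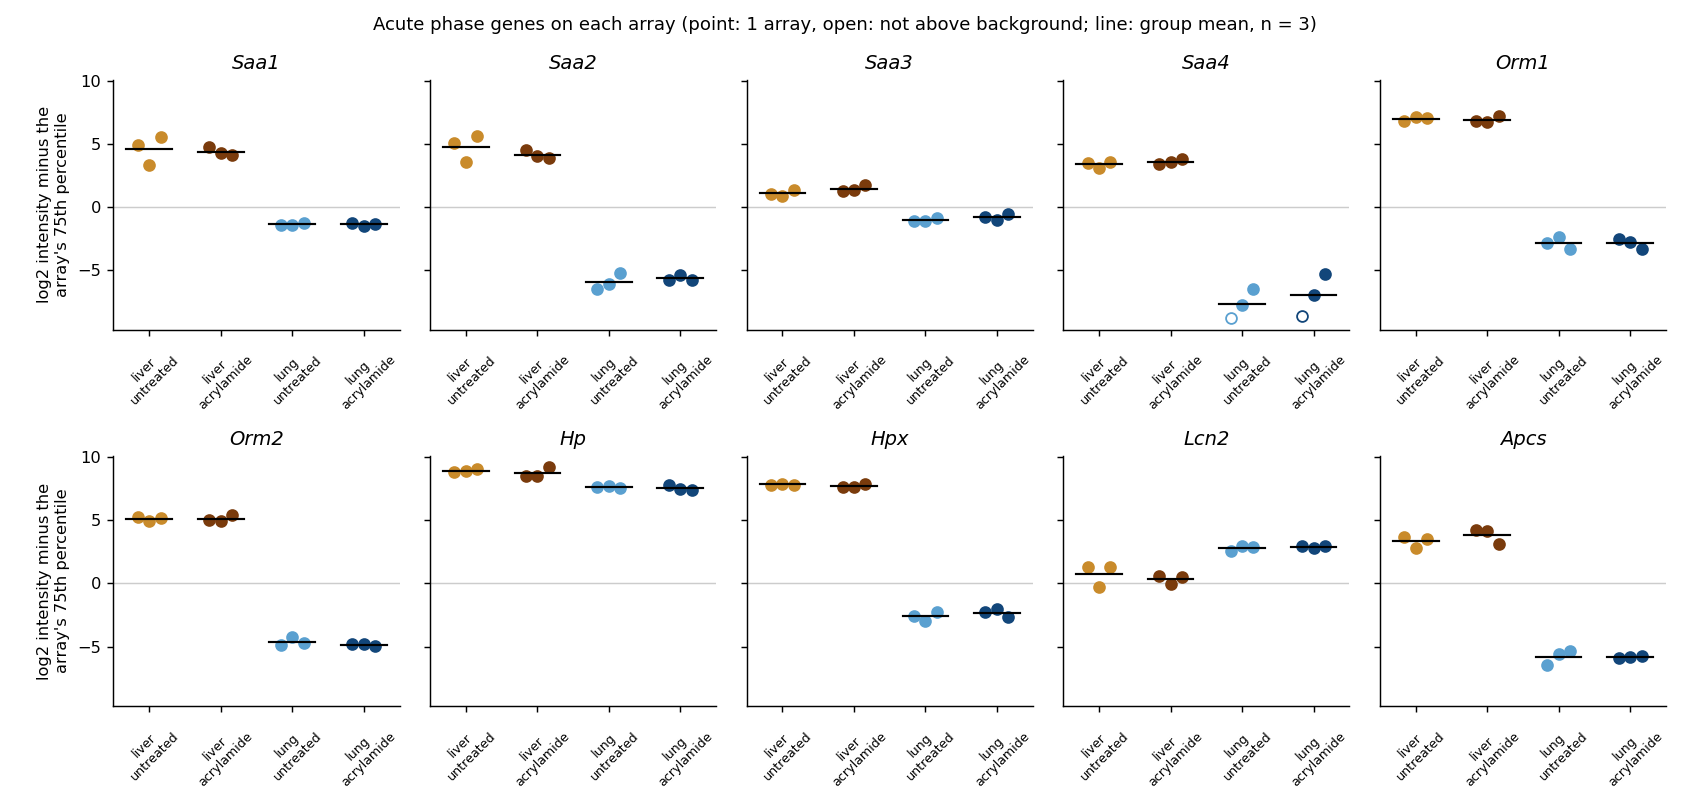
Scaled log2 intensity (log2 intensity minus the array's 75th percentile, vertical axis) of the 10 genes in the 4 groups (horizontal axis). Each point is 1 array, open points are not above background, and lines are means of 3 arrays. Points of liver and lung do not overlap for any gene, Lcn2 is the one with lung above liver, and points of untreated and acrylamide arrays overlap in every panel.

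Saa1 and Saa2, the inducible plasma forms, were separated by tissue to different degrees. Saa1 stood at 4.94, 3.35 and 5.50 on untreated liver arrays 1, 3 and 4, and at -1.44, -1.42 and -1.27 on untreated lung arrays 4, 5 and 6. Saa2 was at 5.02, 3.57 and 5.59 on the same liver arrays and at -6.47, -6.11 and -5.22 on the same lung arrays. Liver array 3 was the low one for both genes, and neither came near the lung values. The untreated tissue difference was -5.98 ± 0.53 (SE; limma adjusted p = 8.0e-05) for Saa1 and -10.67 ± 0.57 (adjusted p = 9.4e-06) for Saa2. As folds, liver was 63.0 times lung for Saa1 (95% interval 26.1 to 152) and 1624 times for Saa2 (621 to 4246). Those intervals did not overlap, and on the acrylamide arrays the folds were 53.5 (38.8 to 73.9) and 875 (604 to 1270). In lung the Saa1 spot was 113 to 204 times the background limit and the Saa2 spot 3.81 to 10.73 times. Probe sequences were not used here, so how far each spot also reads the transcript of the other gene was not tested.

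Saa3, the form known from macrophages and epithelia, was separated far less. It was at 1.04, 0.88 and 1.31 in untreated liver and at -1.07, -1.08 and -0.90 in untreated lung. The difference was -2.09 ± 0.16 (limma adjusted p = 4.1e-05), a liver level 4.27 times that of lung (95% interval 3.27 to 5.57), and on acrylamide arrays it was -2.22 ± 0.19 (adjusted p = 0.00014). Saa4, the constitutive form, was at 3.46, 3.09 and 3.55 in untreated liver against -8.82, -7.74 and -6.50 in untreated lung. Its lung signal sat at the edge of detection, above background on 4 of 6 lung arrays and not on untreated 4 or acrylamide 28. Its fold of 2125 (835 to 5406) in untreated arrays therefore rests on lung values at or just above background, which spanned 11.7-fold among the 6 lung arrays.

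Apcs, the pentraxin, stood at 3.69, 2.82 and 3.47 in untreated liver and at -6.45, -5.55 and -5.37 in untreated lung. The difference was -9.12 ± 0.36 (limma adjusted p = 2.7e-06), and the lung signal was 3.88 to 9.67 times the background limit.

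Both orosomucoids, acidic glycoproteins of plasma, were far lower in lung. Orm1 was at 6.83, 7.08 and 7.06 in untreated liver and at -2.88, -2.37 and -3.29 in untreated lung, a difference of -9.84 ± 0.25 (limma adjusted p = 5.9e-07). Orm2 was at 5.23, 4.95 and 5.14 against -4.85, -4.21 and -4.75, a difference of -9.72 ± 0.21 (adjusted p = 4.2e-07). On the acrylamide arrays the differences were -9.79 ± 0.26 and -9.98 ± 0.16. The spread among replicates was a small part of the gap between tissues for either gene.

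Hemopexin and haptoglobin, which clear haem and haemoglobin, differed in size of effect. Hpx was at 7.81, 7.89 and 7.75 in untreated liver and at -2.61, -3.00 and -2.26 in untreated lung, a difference of -10.44 ± 0.21 (limma adjusted p = 3.8e-07) and 1393-fold (982 to 1975). Hp was at 8.78, 8.88 and 9.02 in untreated liver and at 7.64, 7.68 and 7.52 in untreated lung. The groups did not overlap, yet the difference was only -1.28 ± 0.13 (adjusted p = 0.00017), or 2.43-fold (1.95 to 3.03), and -1.17 ± 0.24 (adjusted p = 0.0064) on acrylamide arrays. Hp was near the top of the intensity range on every array: 51 to 65 spots were brighter in liver and 81 to 124 in lung. Its deposited intensity was 169160 to 226158 in liver and 189263 to 224030 in lung, nearly the same range, while the 75th percentile used for scaling was 294.5 to 621.5 in liver and 839.4 to 1376 in lung. With no scaling, an alternative chosen after these values were seen, the Hp difference was 0.03 in untreated arrays (adjusted p = 0.846, against a range of 1.4e-05 to 0.846 over its alternatives) and 0.01 in acrylamide arrays (0.993, range 0.00035 to 0.993). Quantile scaling gave -0.34 (adjusted p = 0.037) and -0.31 (0.023). Saturation flags were not used here. Leaving out the scaling shifts all genes alike: it moved the median of all genes from -0.28 to 1.04 in untreated arrays and turned the split of calls from 7179 higher and 9521 lower to 13361 and 3947. A value relative to that median is therefore the same with and without scaling, and only quantile scaling could move it. Relative to the median, Hp in untreated arrays was at -1.01, and at -0.35 with quantile scaling. The size of its difference thus depends on the scaling, and its direction relative to other genes did not turn with quantile scaling. Saa3 relative to the median was at -1.82 in untreated arrays and at -1.97 in acrylamide arrays, and at -2.09 and -2.25 with quantile scaling. Its unscaled difference of -1.05 in acrylamide arrays did not pass (adjusted p = 0.063, range 1.0e-06 to 0.063).

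Lcn2, the siderophore binder, was the one gene higher in lung. Its brighter spot was at 1.25, -0.30 and 1.32 on untreated liver arrays 1, 3 and 4 and at 2.56, 2.96 and 2.87 on untreated lung arrays 4, 5 and 6. The difference was 2.04 ± 0.45 (limma adjusted p = 0.0058), 4.11-fold (1.94 to 8.70), and 2.54 ± 0.19 (adjusted p = 9.6e-05) or 5.82-fold (4.16 to 8.13) on acrylamide arrays. Its dimmer spot ran the same way, at -1.65, -3.51 and -1.87 in untreated liver and -0.28, 0.38 and 0.34 in untreated lung, a difference of 2.49. No scaling or other alternative turned the direction, which ranged from 1.51 to 3.35 in untreated arrays.

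**Figure D2:**
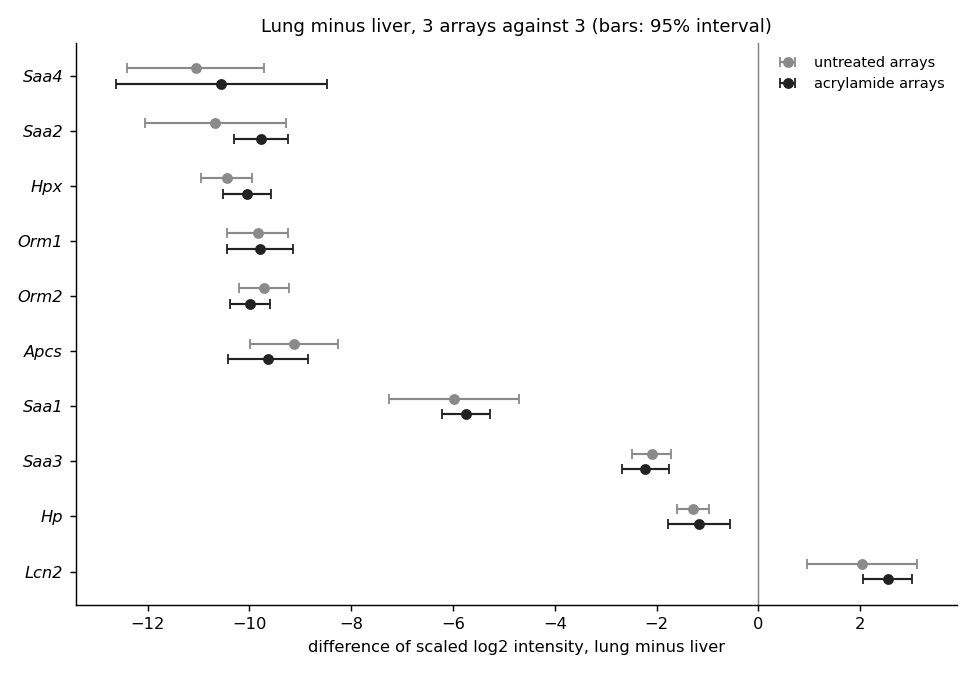
Lung minus liver difference of scaled log2 intensity (horizontal axis) for each gene (vertical axis), with 95% intervals, in the 3 against 3 untreated arrays (grey) and the 3 against 3 acrylamide arrays (black). Saa4, Saa2, Hpx, Orm1, Orm2 and Apcs lie between -11.05 and -9.12 in untreated arrays, Saa1 at -5.98, Saa3 at -2.09, Hp at -1.28 and Lcn2 at 2.04. The Saa4 values rest on lung spots above background on 2 of 3 arrays in each group, and the Hp value was -0.34 with quantile scaling.

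The same contrast in the rest of the pathway was taken from lists of other genes. Of 21 other positive acute phase genes tested, 20 differed between untreated lung and liver (limma, adjusted p under 0.05), and the list was lower in lung for 18, with a median of -4.68. Fgb, a fibrinogen chain, differed by -10.13 ± 0.33, and C3, the central complement component, by -3.32 ± 0.14, while Cd14, an endotoxin co-receptor, was higher in lung by 2.62 ± 0.23. All 12 negative acute phase genes passed and were lower in lung (median -7.93). The shares called in the other lists are to be read beside the 74.4% of all genes. Of 20 cytokines and receptors 14 passed, 10 of the 20 being higher and 10 lower (median 0.02), and of 26 signal transducers and transcription factors 17 passed (17 of 26 higher, median 0.36). Of 16 receptors and clearance genes 14 passed, with 9 higher and a median of 0.66. Fgb, C3 and Cd14 were picked for naming after their values were seen.

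Acrylamide against untreated liver, the study's treatment question, gave no call for these genes. None of the 10 passed the limma test after adjustment over 21169 genes, none passed at an unadjusted p under 0.05 and none had groups that did not overlap. Across all genes 0% passed after adjustment, 6.04% (1278 genes) passed unadjusted and 12.2% had groups that did not overlap. The 10 differences ran from -0.60 to 0.48 log2 units, 4 higher and 6 lower with acrylamide, with a median of -0.09 against -0.02 over all genes. Every 95% interval held 0, but their widths differed: the Hpx interval allowed from 1.35-fold lower to 1.18-fold higher, and the Saa1 interval from 2.99-fold lower to 2.16-fold higher. A missed threshold does not show that levels were alike, and changes within those limits were not excluded. The intervals are not adjusted over the genes tested, so they do not give the size of change that the adjusted test could detect.

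Among the serum amyloids, Saa1 was at 4.94, 3.35 and 5.50 in untreated liver and at 4.73, 4.24 and 4.13 on acrylamide arrays 27, 29 and 30. The acrylamide values lay inside the span of the untreated ones, and the difference was -0.24 ± 0.55 (limma adjusted p = 0.937). Saa2 was at 4.48, 4.0 and 3.90 with acrylamide, again inside the untreated span of 3.57 to 5.59, with a difference of -0.60 ± 0.52 (adjusted p = 0.840). Saa3 gave the lowest unadjusted p of the 10 (0.118, limma). It was at 1.04, 0.88 and 1.31 in untreated liver and 1.25, 1.33 and 1.70 with acrylamide, so the groups overlapped through acrylamide 27 alone, and the difference was 0.35 ± 0.19 (adjusted p = 0.784). Saa4 was at 3.46, 3.09 and 3.55 against 3.41, 3.58 and 3.78, a difference of 0.23 ± 0.19 (adjusted p = 0.834).

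The within-array difference of Saa1 and Saa2 is given as a description, chosen after its values were seen. Taking Saa1 minus Saa2 on each array removes the scaling and any change that both genes share. It was -0.08, -0.22 and -0.09 on untreated liver arrays 1, 3 and 4, and 0.25, 0.23 and 0.23 on acrylamide arrays 27, 29 and 30. The groups did not overlap, at -0.13 ± 0.08 and 0.23 ± 0.01 (SD, n = 3), and differed by 0.36. A two-sided exact permutation test over the 20 splits gave p = 0.10, the smallest that 3 against 3 arrays allow, so the test could not have passed 0.05. In lung the same quantity was 4.56 ± 0.55 untreated and 4.27 ± 0.36 with acrylamide, with overlapping groups (exact permutation p = 0.40).

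The other genes in liver moved little against their spread. Apcs had the largest positive difference, 0.48 ± 0.38 (limma adjusted p = 0.821), from 3.69, 2.82 and 3.47 untreated to 4.22, 4.10 and 3.10 with acrylamide, where arrays 27 and 29 were high and 30 was low. Lcn2 was at 1.25, -0.30 and 1.32 untreated and 0.58, -0.05 and 0.53 with acrylamide, a difference of -0.40 ± 0.47 (adjusted p = 0.868). Its dimmer spot gave -0.99, and it was not above background on acrylamide array 30. Hp, Hpx, Orm1 and Orm2 differed by -0.18 ± 0.23, -0.10 ± 0.14, -0.08 ± 0.19 and 0.02 ± 0.18. In scaled values arrays 27 and 29, on which lung transcripts were seen, were the highest for Apcs and the lowest for Hp, Hpx and Orm1. Before scaling these arrays were the highest in liver for Hpx (124465 and 124225) and Orm1 (69624 and 64819). Hp was at 226158 and 217954 there. The 75th percentile subtracted was 620.1 and 621.5 on arrays 27 and 29, against 294.5 to 481.7 on the other liver arrays. Without arrays 27 and 29 a single acrylamide array remains, and Apcs (-0.23), Hp (0.27), Hpx (0.06) and Orm1 (0.23) turned direction. The part of these arrays and of the scaling in the differences was not tested otherwise.

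**Figure D3:**
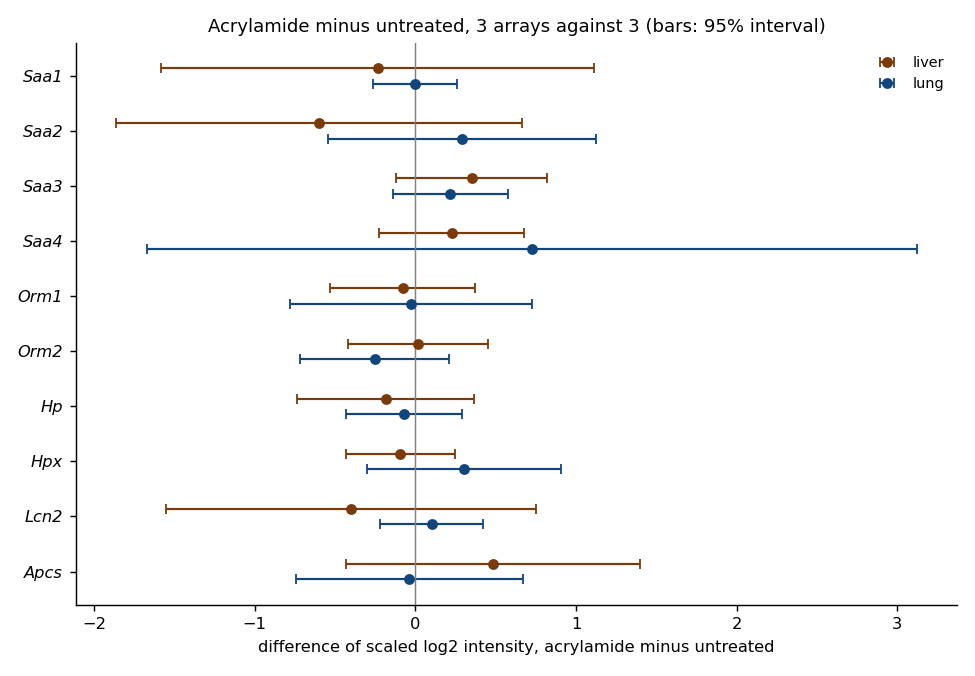
Acrylamide minus untreated difference of scaled log2 intensity (horizontal axis) for each gene (vertical axis) in liver (brown) and lung (blue), 3 arrays against 3, with 95% intervals. All 20 intervals hold 0, and the widest are those of Saa4 in lung and of Saa1, Saa2 and Lcn2 in liver.

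Acrylamide against untreated lung gave no call either. None of the 10 genes passed after adjustment over 22252 genes (limma; adjusted p of 0.998 and above), at an unadjusted p under 0.05, or by groups that did not overlap, against 0%, 4.95% (1102 genes) and 10.9% of all genes. The differences were 5 higher and 5 lower, with a median of 0.05 against -0.01 over all genes. The narrowest 95% intervals were those of Saa1, Lcn2, Hp and Saa3. Lcn2 was at 2.56, 2.96 and 2.87 in untreated lung and 2.94, 2.83 and 2.92 with acrylamide, a difference of 0.10 ± 0.13 and a fold of 1.07 (0.86 to 1.34). Saa1 was at -1.44, -1.42 and -1.27 against -1.3, -1.50 and -1.34, a difference of -0.0001 ± 0.11 (95% interval -0.26 to 0.26). Both genes had overlapping groups within 0.40 log2 units over all 6 lung arrays.

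Hp in lung was at 7.64, 7.68 and 7.52 untreated and 7.82, 7.46 and 7.35 with acrylamide, a difference of -0.07 ± 0.15. Saa3 was at -1.07, -1.08 and -0.90 untreated and -0.76, -1.05 and -0.58 with acrylamide. As in liver it had the lowest unadjusted p of the 10 (0.187, limma), with a difference of 0.22 ± 0.15. The direction was positive in both tissues, and neither value passed. Hpx was at -2.61, -3.00 and -2.26 untreated and -2.23, -2.05 and -2.67 with acrylamide, a difference of 0.30 ± 0.25, with array 30 within the untreated span. The remaining genes were low in lung and gave 0.73 ± 0.98 (Saa4), 0.29 ± 0.34 (Saa2), -0.25 ± 0.19 (Orm2), -0.04 ± 0.29 (Apcs) and -0.03 ± 0.31 (Orm1). For Saa4 the acrylamide arrays alone spanned -8.66 to -5.28, wider than the difference.

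The treatment effect in lung minus that in liver was tested over all 12 arrays. It called none of the 10 genes and 0% of 23300 genes (limma; 4.44%, or 1035 genes, at an unadjusted p under 0.05, and none of the 10). Saa2 had the largest value, 0.89 ± 0.68, from -0.60 in liver and 0.29 in lung (adjusted p = 0.994), and Apcs the lowest, -0.52 ± 0.51.

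The liver arrays nonetheless differed from one another in these genes. Saa1 spanned 4.43-fold over the 6 liver arrays, Saa2 4.05-fold, Lcn2 3.08-fold and Apcs 2.64-fold, whereas Hpx spanned 1.19-fold and Orm2 1.37-fold. Saa1 and Saa2 put the 6 arrays in the same order: untreated 4 highest, then untreated 1, acrylamide 27, 29 and 30, and untreated 3 lowest. Lcn2 also had untreated 4 and 1 highest and untreated 3 lowest. The largest gaps were thus between untreated arrays, with arrays 3 and 4 being 2.15 log2 units apart for Saa1, 2.02 for Saa2 and 1.62 for Lcn2.

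**Figure D4:**
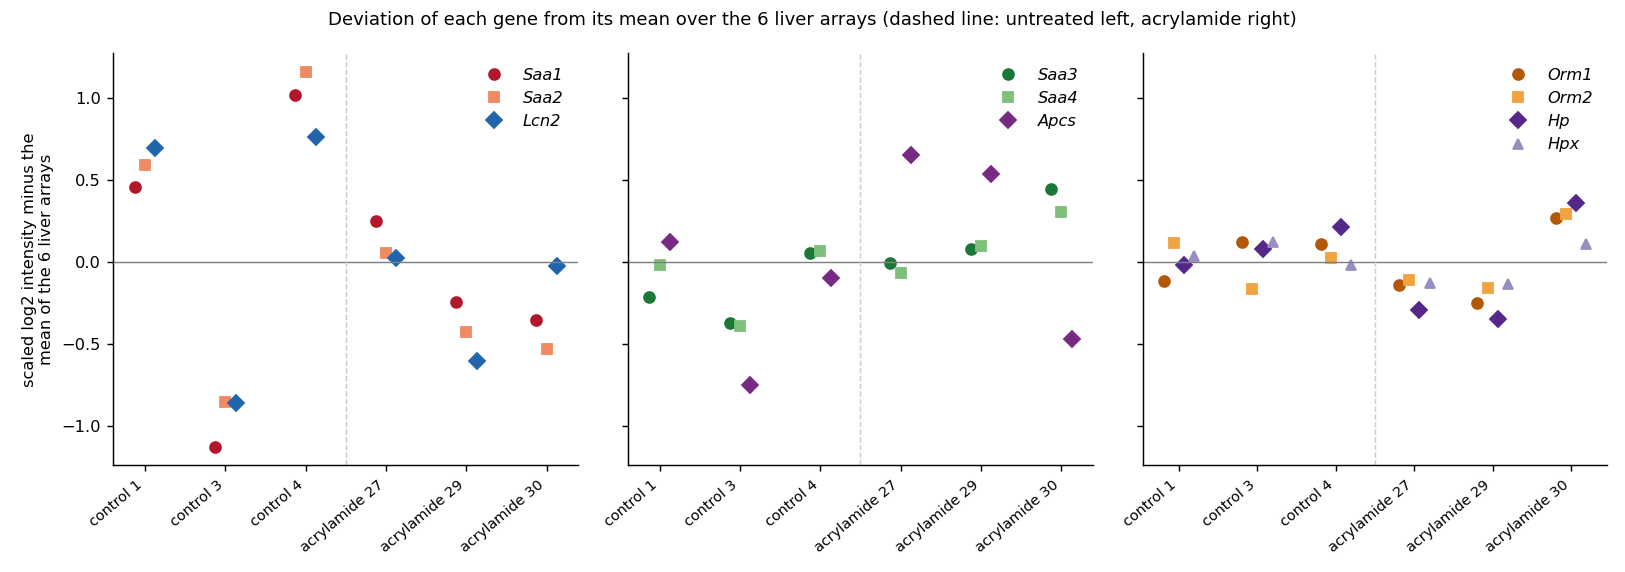
Deviation of each gene's scaled log2 intensity from its mean over the 6 liver arrays (vertical axis), by array (horizontal axis, untreated left of the dashed line, acrylamide right). Saa1, Saa2 and Lcn2 are high on untreated 1 and 4 and low on untreated 3. Saa3 and Saa4 are highest on acrylamide 30. Apcs is highest on acrylamide 27 and 29, where Hp, Hpx and Orm1 are lowest after scaling. The 75th percentile subtracted was the highest in liver on acrylamide 27 and 29 (620.1 and 621.5).

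Over the 6 liver arrays the pairs of genes were compared by correlation. Pearson's r of Saa1 and Saa2 was 0.96 (exact permutation p = 0.0042) and Spearman's rho 1 (p = 0.0028), and r was 0.98 without the 2 arrays farthest from the Saa1 median. Saa1 and Lcn2 gave r = 0.91 (permutation p = 0.0097) and rho = 0.94 (p = 0.017), and r = 0.77 without 2 arrays. Saa2 and Lcn2 gave r = 0.92 (permutation p = 0.013) and rho = 0.94, and r = 0.74 without 2 arrays. A further pair was Saa3 and Saa4, with r = 0.92 (permutation p = 0.025) and rho = 0.94, but r = 0.56 without 2 arrays. Another was Orm1 and Hp, with r = 0.94 (permutation p = 0.0042) and rho = 0.94, and 0.84 without 2 arrays. Apcs ran against Hpx, with r = -0.94 (permutation p = 0.017), rho = -0.89 and -0.79 without 2 arrays.

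These are the 6 of 90 pairs, 45 in each tissue, with r beyond 0.90 in size. None passed Benjamini-Hochberg adjustment over the 90, the lowest adjusted permutation p being 0.19 for r and 0.25 for rho. The arrays share scaling and mix both treatments, and each slide row holds too few arrays (4 and 2 on the liver slide) for a value within it. In lung Saa1 and Saa2 gave r = 0.34, with Saa1 spanning only 1.17-fold there.

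Markers of other cells were set beside these patterns. In liver, the mean of 13 neutrophil genes was -2.22 and -2.43 on untreated arrays 1 and 4, where Lcn2 was highest, -2.98 on untreated 3 and -3.10 on acrylamide 29, where it was lowest, and -2.76 and -2.68 on acrylamide 27 and 30. The correlation with the brighter Lcn2 spot was r = 0.94 (exact permutation p = 0.018) and rho = 0.83 (p = 0.058), with r = 0.98 without 2 arrays. It did not pass adjustment over 260 such relations of members and lists (lowest adjusted permutation p for r, 0.39). The dimmer Lcn2 spot, not above background on acrylamide 30, gave r = 0.62 with the same list. Neutrophils carry Lcn2 in their granules, and their part in the Lcn2 values was not tested. With acrylamide in liver 4 of the 13 neutrophil genes had higher and 9 lower means, and none passed adjustment. The 3 largest in size went both ways. S100a9 and S100a8, granulocyte alarmins, were -1.81 ± 0.49 and -1.79 ± 0.64 (limma adjusted p = 0.784 for both, unadjusted 0.0099 and 0.030), and Retnlg, a resistin-like neutrophil gene, was 0.95 ± 1.04 (adjusted p = 0.859).

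In lung, Hpx followed the hepatocyte genes by array. The mean of 15 hepatocyte genes was -1.58, -1.73 and -1.76 on acrylamide 29, untreated 6 and acrylamide 28, where Hpx was -2.05, -2.26 and -2.23, and -2.39, -2.42 and -2.64 on untreated 4, acrylamide 30 and untreated 5, where Hpx was -2.61, -2.67 and -3.00. The correlation was r = 0.98 (exact permutation p = 0.0028) and rho = 0.94 (p = 0.017), with r = 0.99 without 2 arrays, and it did not pass the same adjustment. All 15 hepatocyte genes and 11 of 12 negative acute phase genes had higher means with acrylamide in lung, with medians of 0.29 and 0.33 beside 0.30 for Hpx; 0 of them passed adjustment. Other relations of members and lists had r of similar size, so those of Lcn2 and Hpx above did not stand alone. In liver these were Hp with negative acute phase genes (0.97), Hpx with club cell markers (-0.95) and Orm2 with signal transducers (-0.92). Orm1 with negative acute phase genes and with hepatocyte markers, and Saa1 with other positive acute phase genes, gave 0.92 each. In lung Hpx gave 0.92 with other positive acute phase genes. The part of hepatocyte RNA in the lung Hpx values was not tested.

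**Figure D5:**
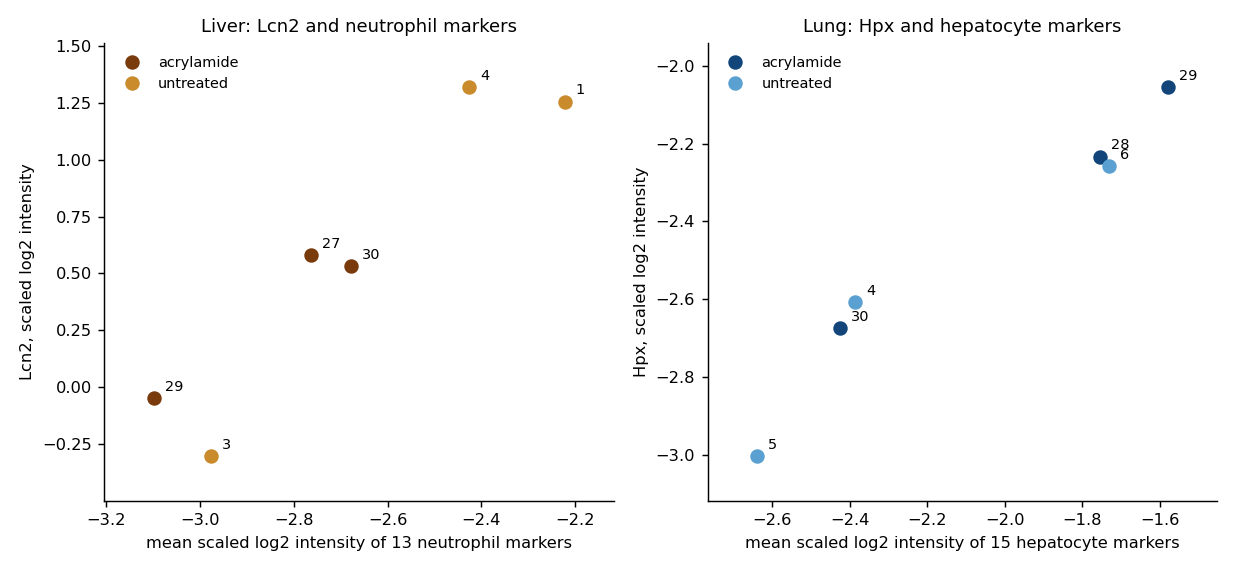
Left, the brighter Lcn2 spot against the mean of 13 neutrophil markers on the 6 liver arrays, and right, Hpx against the mean of 15 hepatocyte markers on the 6 lung arrays. Other relations of members and lists with r of similar size are not drawn. Axes are scaled log2 intensity, each point is 1 array labelled by its number, and colours separate untreated from acrylamide; r is 0.94 on the left and 0.98 on the right, and neither passed adjustment over 260 relations.

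Genes upstream and beside the 10 in the pathway did not pass in either tissue after adjustment (limma, 0 of each list). Among cytokines and receptors in liver, 13 of 20 had higher means with acrylamide and 1 had an unadjusted p under 0.05. The largest in size were Il1a (1.37 ± 0.63) and Il1b (1.3 ± 0.77), both interleukin-1 ligands, and Lif (-0.73 ± 0.59), a ligand of the interleukin-6 family. In lung 8 of 20 were higher and 2 passed unadjusted, the largest in size being Il10 (-0.84 ± 0.43), an anti-inflammatory cytokine, Il22ra1 (-0.63 ± 0.28), a receptor chain for interleukin-22, and Il1b (-0.51 ± 0.39).

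Of the 26 signal transducers and transcription factors, 12 were higher in liver and 9 in lung, with 1 and 0 at an unadjusted p under 0.05 (limma). Socs3, the feedback inhibitor that STAT3 induces, was 0.80 ± 0.54 in liver and 0.45 ± 0.21 in lung. In liver Pias3, an inhibitor of STAT3, was 0.68 ± 0.28 and Stat3 itself -0.63 ± 0.37. In lung Onecut1, a hepatocyte transcription factor near background there, was -1.71 ± 1.1, and Cebpd, a C/EBP factor of the acute phase, was 0.46 ± 0.20.

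Of other positive acute phase genes, 8 of 20 were higher in liver (1 unadjusted, median -0.09) and 15 of 21 in lung (3 unadjusted, median 0.12). Hamp, which encodes the iron hormone hepcidin, was 0.73 ± 0.22 in liver (limma adjusted p = 0.784), with groups that did not overlap. Steap4 (0.57 ± 0.31) and Crp (0.41 ± 0.33), C-reactive protein, came next. In lung Crp was 1.05 ± 0.29 (adjusted p = 0.959) but above background on only 4 arrays, and Serpina3n (0.57 ± 0.37), a protease inhibitor, and Fgb (0.53 ± 0.51) followed. Of 12 negative acute phase genes 4 were higher in liver, with Fetub (-0.34 ± 0.22), Serpina6 (0.33 ± 0.18) and Apoa1 (-0.24 ± 0.14) largest in size. In lung the largest were the liver plasma protein genes Ahsg (0.61 ± 0.46), Fetub (0.57 ± 0.40) and Igfals (0.57 ± 0.33).

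Of 16 receptors and clearance genes, 9 were higher in liver and 11 in lung, with 1 at an unadjusted p under 0.05 (limma) in each. The low-affinity IgG receptor Fcgr3 was 0.71 ± 0.21 in liver and 0.42 ± 0.24 in lung. In liver Lrp2, an endocytic receptor, was 0.63 ± 0.63 and Slc11a1, a phagosomal metal transporter, was 0.46 ± 0.23. In lung Tlr2, a receptor for bacterial lipoproteins, was 0.31 ± 0.26, and the haptoglobin and haemoglobin receptor Cd163 was 0.47 ± 0.16 (limma adjusted p = 0.978). Macrophage markers had higher means with acrylamide for 13 of 13 genes in liver and 11 of 13 in lung, none passing adjustment, and their list means in liver were 1.80 to 2.15 against 1.24 to 1.74 untreated. Fibroblast markers were lower for 8 of 8 in liver, and mesothelial markers for 6 of 7. Alveolar type 2 markers were higher for 6 of 9 in liver, and club cell markers for 4 of 8. Sftpc led them at 5.26 ± 1.97 (limma adjusted p = 0.784), above background on 4 of 6 liver arrays. The alveolar list was at -0.53, -0.92 and -1.78 on acrylamide 27, 29 and 30, against -2.18 to -1.81 untreated. The club cell list was at -0.37, -0.51 and -2.32, against -2.04 to -1.68. Adipocyte markers were higher for 4 of 9 in liver and 5 of 10 in lung, neutrophil markers for 7 of 14 in lung, and hepatocyte markers for 6 of 15 in liver. In lung alveolar type 2 markers were higher for 0 of 10, mesothelial markers for 0 of 7, club cell markers for 4 of 9 and fibroblast markers for 6 of 8.

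Genes whose levels tracked the widest-ranging members were named by their Pearson r over 6 arrays, a description chosen as the highest of many. Only members above background on all 6 arrays of the tissue entered, which leaves out Saa4 in lung although it spanned 11.7-fold there. Among 13984 genes in liver, Saa1 was closest to Kcns1 (r = 0.996), Acyp1 (0.992) and Ttc12 (0.989). Saa2 was closest to Rhobtb2, Ttc12 and Hmgb4os (each 0.982), and Lcn2 to Arhgef19 (0.991), Ksr2 (0.986) and Cyp2c67 (0.985). Ttc12 was on the lists of both serum amyloids. Among 17097 genes in lung, the closest were Olfr1375 (r = 0.996), Rhox2h (0.987) and Amz1 (0.984) for Saa2, Mctp1 (0.998), P2rx1 (0.997) and Wdr5b (0.997) for Apcs, and Ccnc (0.993), Ebpl (0.981) and Alyref (0.979) for Orm1. No lung gene was shared between these members.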

How the data were processed

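Array values are linear Cy3 intensity per spot, deposited by the authors as text tables; the submitters' processing notes name Agilent Feature Extraction 10.7. Whether background was subtracted is not given in the sources used here, and the deposited series matrix, which is the same intensity times 1 factor per array, was an alternative. Of 62976 spots, 1319 controls were left out. From log2 intensity the array's own 75th percentile was subtracted. Spots above the 95th percentile of 308 negative control spots on at least 3 arrays of a fit were tested, each gene by its spot with the highest mean. Symbols came through Entrez numbers or accessions of a RefSeq table (GRCm38.p6, names and promoter windows).

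Groups were fitted with limma 3.58.1 (lmFit, eBayes; two-sided) in R 4.3.3, with Benjamini-Hochberg adjustment over all genes and a threshold of 0.05. The fits were tested on simulated data. The number of arrays limits the precision. No 2 arrays of a group held identical values. The 10 genes and the lists were chosen with earlier results of these data known. The named genes are the 10, the 3 widest differences per list and tissue (for cell type lists only some are printed), and the 3 best correlated genes for 3 wide-ranging members per tissue. Alternatives covered scaling, background filter, spot choice, weights, slide row, replicate block and leaving out arrays.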

Additional observations from a re-analysis of the deposited data

How the results depend on the processing

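No member was called in a treatment or interaction contrast under any alternative run. All 10 kept their tissue calls wherever they were tested except, without scaling, Hp in both (0.030 and 0.0063) and Saa3 in acrylamide arrays (-1.05). Leaving out the scaling shifts all genes alike. At an unadjusted p under 0.05 (limma), 3 of the 10 passed in liver without control 3 (982 of 20703 genes). There the differences were -1.18 for Saa2 and -0.93 for Lcn2. In liver 2 passed with arrayWeights (4622 of 21169 genes) and 2 without acrylamide 30 (3393 of 21078). For the interaction 3 passed with arrayWeights (4030 of 23300) and 3 without liver control 3 (958 of 23173). In every other treatment or interaction run at most 1 passed. Where every array had to pass background, Saa4 was not tested in lung, in either tissue contrast or in the interaction. Counts over all genes moved more. Liver calls were 2 in 1 fit of 12 arrays, 48 without acrylamide 27 and 29, and 0 to 1 with single arrays left out (1 without acrylamide 27). Lung calls were 1 without scaling. Interaction calls were 139 with arrayWeights, 1158 without liver acrylamide 27 and 29, and 0 to 136 with single arrays left out (136 without liver acrylamide 30, 8 without 27, 1 without liver control 1 or lung acrylamide 30). Testing every spot called 34703 spots between untreated tissues and 32488 between acrylamide tissues, being spots and not genes. The causes of the other moves were not tested.

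Uncalled differences turned direction as follows. In liver, without acrylamide 27 and 29: Orm1 0.23, Hp 0.27, Hpx 0.065, Apcs -0.23. Without scaling, Orm1 gave 0.028 and Hpx 0.011, and arrayWeights gave Orm2 -0.14. Leaving out single liver arrays gave Saa1 -0.86 to 0.22, Orm1 -0.23 to 0.026 and Orm2 -0.13 to 0.10. Single lung arrays gave Saa1 -0.039 to 0.059, Saa4 -0.11 to 1.58, Orm1 -0.25 to 0.21, Hp -0.21 to 0.028, Lcn2 -0.016 to 0.18 and Apcs -0.37 to 0.17. For the interaction, Orm1 was -0.040 with quantile scaling, -0.039 with the slide row as block, -0.26 without acrylamide 27 and 29, and -0.090 without scaling. Hp was -0.34 and -0.024 in the last 2 settings, Apcs 0.19 without 27 and 29, and Saa3 0.032 with arrayWeights. Single arrays left out gave interactions of -0.22 to 0.86 for Saa1, -0.25 to 0.0053 for Saa3, -0.34 to 1.35 for Saa4, -0.17 to 0.29 for Orm1 and -0.022 to 0.34 for Hp.

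Title numbers 4, 29 and 30 occur in both tissues. Deviations of same-numbered arrays from their group means gave r = -0.09, -0.02 and -0.26 over 23789 spots. Pairs of liver and lung arrays with different numbers and the same treatment ran from -0.18 to 0.23. With 3 arrays in a group these values cannot show whether same-numbered arrays come from 1 animal, which the labels do not state. With the number as a replicate block the counts were 16875 and 17041 between tissues and 0 for the interaction, with 10, 10 and 0 members called. Within slide rows, of which row 2 holds 1 array a group in liver, Saa1 in liver was 0.28 in row 1 and -1.27 in row 2, and Lcn2 was 0.08 and -1.37. Where an arm was left with 1 array, that array was assumed to vary like the others. Near-background lung signal limits Saa4, Saa2 and Apcs.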
